A study of Homo sapiens with 6 samples.

Results

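A small group of genes had almost no transcripts in macrophages made from B cells in the presence of CTCF, but had transcripts when CTCF had been removed. The group was chosen from the raw counts. A gene entered when each of the 2 libraries of control cells at 96 h held at most 3 counts, and when the 2 CTCF-depleted libraries summed to 20 counts or more with more than 3 in each. 33 of the 30017 genes in the table met this rule (0.110%). 12 of them were also silent before differentiation, with at most 3 counts in each 0 h library, whereas the other 21 had transcripts at 0 h. As the counts of control and depleted libraries at 96 h chose the genes, the differences between these libraries are given as a description, without a test, and nothing is read from their size.

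The cells were BLaER1-CTCF-mAID, a subclone of a human B cell leukemia line that is converted into induced macrophages (iMacs) by the transcription factor CEBPA. In this subclone CTCF carries an auxin-inducible degron, a protein tag that leads to degradation of CTCF once the auxin indole-3-acetic acid (IAA) is added. RNA-seq was performed on 2 biological replicates in each of 3 conditions, all of the same genotype: cells at 0 h, before the transdifferentiation factors were added, cells at 96 h that had received these factors without auxin (control), and cells at 96 h that had received them together with auxin (CTCF-depleted). No IAA-treated cells without the degron were analysed here, so that effects of IAA and of CTCF loss cannot be told apart, and all values come from 1 engineered subclone.

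CTCF is a zinc finger protein that binds DNA at a long motif and stops the cohesin complex while it extrudes loops of chromatin. Bound sites thereby form boundaries between neighboring domains, and a boundary can keep an enhancer from acting on a promoter on its other side. Many genes of the germ line and of other tissues are silent in blood cells, often with methylated promoters, and single loci are known at which loss of a CTCF site brought a silent gene under the influence of a foreign enhancer.

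The promoter windows of 3 of the leading genes are shown first, because they differ in the sequence features that were counted for the whole group. Each window holds 250 bases before and 50 bases after a RefSeq transcription start (GRCh38.p14, with the same bases in hg38), written 5′ to 3′ on the strand of the gene. In the *PRAME* window (chr22:22559216-22559515, minus strand) the capitals mark a match to the core consensus of the CTCF motif on the opposite strand. In the window of *SYCE3* (chr22:50562870-50563169, minus strand) they mark each CpG, and the *TAC4* window (chr17:49848020-49848319, minus strand) has no CpG to mark.
PRAME: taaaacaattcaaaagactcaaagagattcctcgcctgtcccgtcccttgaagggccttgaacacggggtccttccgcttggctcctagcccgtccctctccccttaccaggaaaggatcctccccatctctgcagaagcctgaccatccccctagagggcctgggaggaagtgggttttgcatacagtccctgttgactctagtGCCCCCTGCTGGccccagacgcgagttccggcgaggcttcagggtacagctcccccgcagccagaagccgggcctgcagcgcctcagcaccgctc
SYCE3: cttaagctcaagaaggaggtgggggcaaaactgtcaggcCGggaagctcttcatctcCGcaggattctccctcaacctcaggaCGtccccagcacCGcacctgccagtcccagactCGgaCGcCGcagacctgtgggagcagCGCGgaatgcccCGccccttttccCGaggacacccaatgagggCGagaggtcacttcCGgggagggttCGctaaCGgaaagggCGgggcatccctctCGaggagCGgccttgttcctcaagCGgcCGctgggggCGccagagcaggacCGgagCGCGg
TAC4: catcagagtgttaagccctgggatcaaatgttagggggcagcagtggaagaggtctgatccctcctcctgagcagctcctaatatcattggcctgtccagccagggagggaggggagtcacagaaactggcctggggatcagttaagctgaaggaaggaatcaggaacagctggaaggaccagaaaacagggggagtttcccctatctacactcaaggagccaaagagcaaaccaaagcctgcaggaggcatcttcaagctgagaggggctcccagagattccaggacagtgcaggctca

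RefSeq promoter windows were found for 19 of the 33 genes, 29 windows in all, since 5 of these genes had several. The core consensus of CTCF, 12 positions with some degenerate letters, was searched on both strands. It was present in 1 of the 29 windows (3.45%), that of *PRAME*, where the match CCAGCAGGGGGC occupied chr22:22559299-22559310, from 45 to 34 bases before the start. Of all 35116 windows of the same length 165 held it (0.470%), and among windows of genes silent in the control it was 0.339%. A looser form of the same motif, with its degenerate positions left free, also matched the same 1 of the 29 windows (3.45%), and it was found in 845 of all windows (2.41%), in 2.10% of those of silent genes and in 2.78% of those of tested genes. With 1 match, nothing is read from either share. *PRAME* has 2 further start sites downstream whose windows do not hold it. The motif was chosen after the counts were known, and a match describes letters, not bound CTCF.

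CpG content differed widely among the shown promoters. The *SYCE3* window had 24 CpG dinucleotides with a GC share of 66% (ratio of observed to expected CpG 0.735), that of *PRAME* had 13 with 61% GC (0.481), and that of *TAC4* had 0 with 54.3% GC. Across the 29 windows of the group the median GC share was 61% and the median CpG ratio 0.481. The windows of all genes silent in the control had medians of 54.7% and 0.360, and those of the genes with enough counts for a test had medians of 64.3% and 0.806. The medians of the group therefore lay between those of silent and tested genes in both measures, without a test. The 2 classes differed in the CpG ratio. It was 0.443 in 10 windows of genes silent at 0 h (GC share 58.3%) and 0.672 in 19 windows of the others (61%). Genes with several windows count several times, and the group is itself part of the silent genes.

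Most genes that were silent in the control were silent in CTCF-depleted cells too. In the control at 96 h, 13862 genes (46.2%) had at most 3 counts in each library. In the CTCF-depleted libraries 10503 of these had no count at all, and 13829 had a sum of at most 19. The 33 genes thus made up 0.238% of the silent genes. Of 12817 genes that were silent both at 0 h and in the control, 12 met the rule (0.0936%), compared with 21 of the 1045 genes that were silent in the control but not at 0 h (2.01%). The same rule turned round, silent in depleted and present in control libraries, found 43 genes. Total counts were 11001175 and 10911481 in depleted libraries compared with 11695516 and 11267539 in the control. After scaling, the library sizes were 10800064 and 10855411 compared with 11330581 and 10798295. The part of library size in these numbers of genes was not tested.

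**Figure D1:**
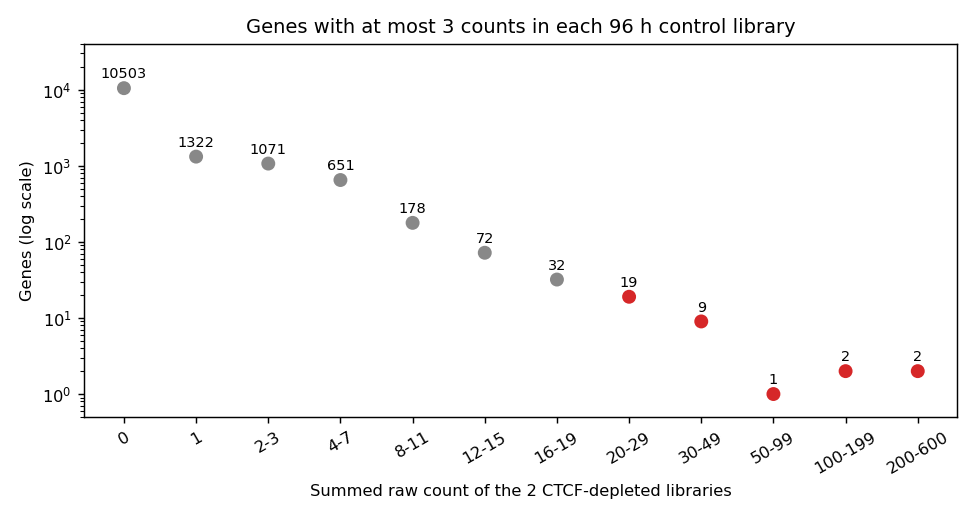
Number of genes (log scale) by the summed raw count of the 2 CTCF-depleted libraries, for the 13862 genes with at most 3 counts in each 96 h control library. Red points are the bins that meet the minimum of 20. Numbers fall from 10503 genes without a count to 1 or 2 genes in the last 3 bins, with no gap at the limit of 20.

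Summed depleted counts lay between 20 and 596 for the 33 genes (median 27), and most of the transcripts came from few genes. *PRAME* and *CALB2* together held 51.8% of the 2222 counts of the group in depleted libraries, and 4 genes exceeded 100 counts. At the other end, 19 genes had fewer than 30 counts and 6 had exactly 20. The depleted replicates were within 2-fold of each other in 30 genes, and the widest ratio was 3 (*HHIP*, with 5 and 15 counts). *BATF2*, *C20orf203* and *HHIP* were just inside the limit with 20 summed counts. *C10orf111* (7 and 12 counts), *FLJ33360* (10 and 9) and *HHIP-AS1* (5 and 14) were just outside with 19. In the band from 20 to 24 summed counts there were 14 genes, and a further 43 otherwise eligible genes lay between 15 and 19, so that the end of the group is set by the limit.

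**Figure D2:**
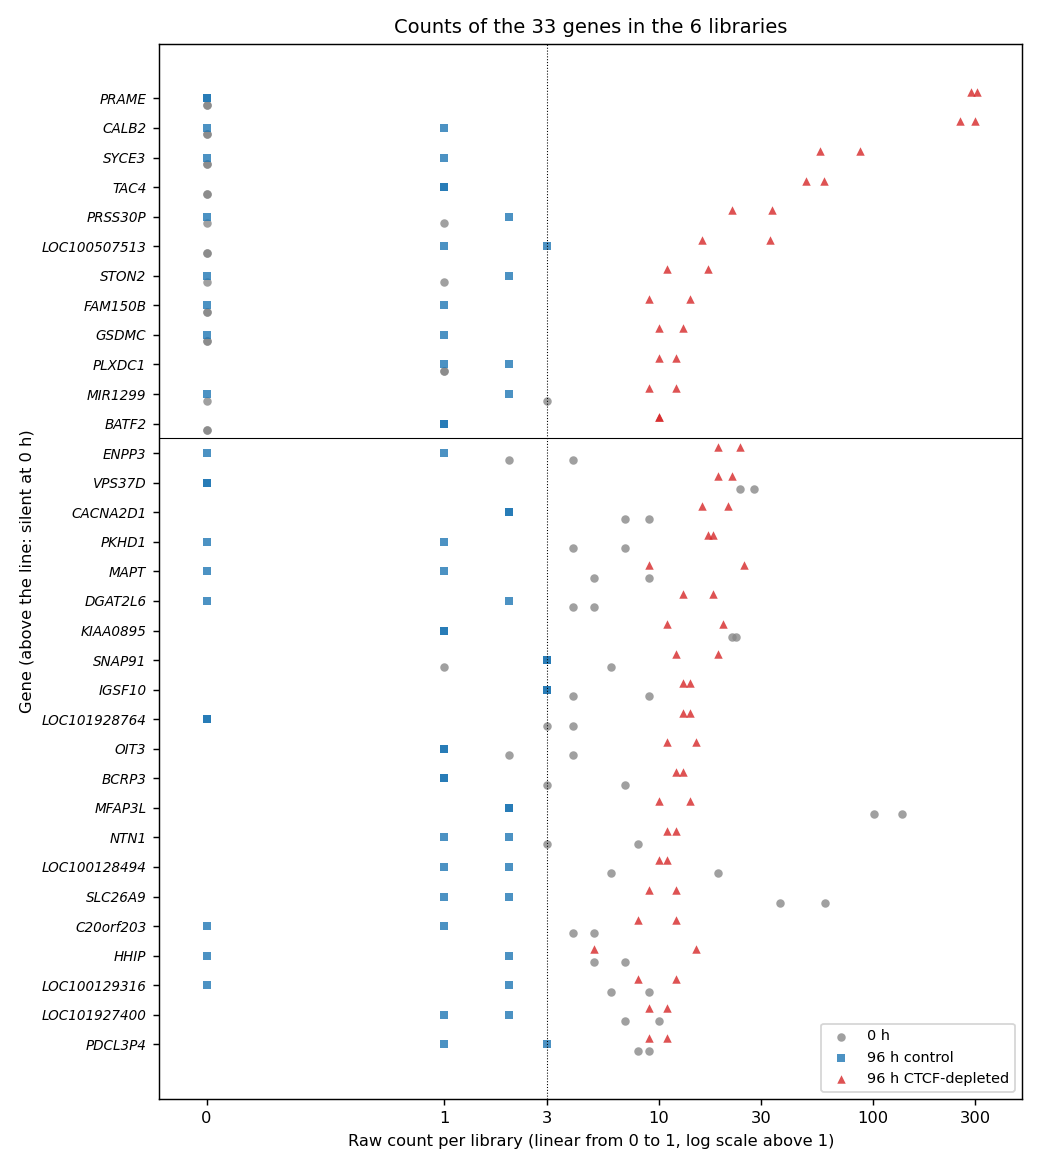
Raw count per library (linear from 0 to 1, log scale above 1) for each of the 33 genes, with 0 h as circles, 96 h control as squares and 96 h CTCF-depleted as triangles. The dotted line marks the limit of 3 counts, darker symbols are 2 libraries with the same count, and genes above the horizontal line are the 12 that were silent at 0 h. *PRAME* and *CALB2* stand apart with 255 to 307 counts per depleted library.

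The gene with the most transcripts was *PRAME* (chr22:22547701-22559361, minus strand, with gene positions throughout from GENCODE 44 on hg38), a cancer-testis antigen that is normally restricted to the germ line and serves as the substrate receptor of a ubiquitin ligase. Neither the 0 h nor the control libraries held a single count (0 in all 4), whereas CTCF-depleted cells had 307 in replicate 1 and 289 in replicate 2. Against a floor of 3 counts in each control library this is at least 101-fold higher. The depleted level was 27.5 ± 1.27 CPM (counts scaled to the library size; SD, n = 2). In bulk RNA, many transcripts in few cells and few transcripts in many cells cannot be told apart.

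*CALB2* (chr16:71358713-71390436, plus strand) encodes calretinin, a calcium-binding protein of neurons and mesothelium. It had 0 and 0 counts at 0 h, 0 and 1 in the control and 255 and 300 in depleted libraries. With 1 count in the control, the ratio of 567 has a 95% counting interval from 101 to 22440. Such intervals cover counting error only, since the counts of the 2 libraries were summed and variation between replicates was left out. As the reads carried no molecular identifiers, counting error may be larger too. Over tested genes, replicates differed by more than counting error. The chi-square per degree of freedom was 2.76 at 0 h, 1.92 in the control and 1.73 in depleted libraries, where counting alone gives 1. The depleted level of *CALB2* was 25.6 ± 2.85 CPM (SD, n = 2), and its relative *CALB1* had 0 counts in all 6 libraries.

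*SYCE3* (chr22:50551112-50562919, minus strand) is a component of the central element of the synaptonemal complex, which joins homologous chromosomes in meiosis. Its counts were 0 and 0 at 0 h, 1 and 0 in the control and 87 and 57 in depleted libraries, a ratio of 147 (95% counting interval 26.0 to 5852). *TAC4* (chr17:49838300-49848069, minus strand) encodes the precursor of the tachykinin peptides hemokinin and endokinin. It had 0 and 0 counts at 0 h, 1 and 1 in the control and 49 and 59 in depleted libraries, with a ratio of 55.2 (14.9 to 461). That the depleted libraries of these genes do not overlap with the others follows from the rule, for every gene that was silent at 0 h.

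The other 8 genes that were silent at 0 h had between 20 and 56 summed counts in depleted libraries. *PRSS30P*, a pseudogene of a serine protease, had 1 and 0 counts at 0 h, 2 and 0 in the control and 34 and 22 in depleted libraries (ratio 28.6, 7.56 to 242). The noncoding *LOC100507513* had 0 and 0, then 3 and 1, then 16 and 33 counts in the same order (ratio 12.5, 4.59 to 47.8). *STON2*, an adaptor for the uptake of synaptic vesicle proteins, had 1 and 0, 2 and 0, and 17 and 11 counts (ratio 14.3, 3.61 to 124).

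The remaining genes of this class were lower still. *FAM150B* (now *ALKAL2*) encodes a ligand of the receptor tyrosine kinases ALK and LTK, and it had 9 and 14 counts in depleted libraries after 1 and 0 in the control. *GSDMC*, of the pore-forming gasdermins, had 10 and 13 counts after 0 and 1. *PLXDC1*, a transmembrane protein of endothelial cells, had 12 and 10 counts after 2 and 1, and 1 and 1 at 0 h. *MIR1299* had 9 and 12 counts after 2 and 0, and *BATF2*, a basic leucine zipper factor, had 10 and 10 after 1 and 1. The ratios of these 5 genes were between 7.49 (*PLXDC1*, 2.25 to 39.1) and 23.5 (*FAM150B* and *GSDMC*, each 3.82 to 968). At 0 h, *FAM150B*, *GSDMC* and *BATF2* had no counts, and *MIR1299* had 0 and 3.

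*MIR1299* was the only small RNA gene of the group, and its counts lie on an 83-base hairpin (chr9:40929010-40929092, minus strand) in RNA from which ribosomal RNA had been removed, not in a small RNA library. They therefore do not measure the mature miRNA. The mature sequence (RefSeq, chr9:40929010-40929031) is shown with its seed, bases 2 to 8, in capitals.
hsa-miR-1299: uUCUGGAAuucugugugaggga

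Levels can be compared between genes only per length. Per kilobase of exon, *CALB2* was highest in depleted libraries with 15.1 CPM per kb, followed by *SYCE3* with 13.6, *MIR1299* with 11.7, *PRAME* with 7.23 and *TAC4* with 4.69. The values of *CALB2* and *SYCE3* were within the spread of the *SYCE3* libraries. That of *MIR1299* rests on 21 counts over 83 bases and is not a reliable level. Exon lengths join all exons of a gene in GENCODE 44, and the annotation used for counting is not given. The order of the genes is therefore uncertain. The next gene, *VPS37D*, had 1.17 CPM per kb, and *HHIP* was lowest with 0.0773. 4 of the 27 genes with an exon length exceeded the median of 13422 tested genes in the same libraries, 5.65 CPM per kb, whereas the median of the group was 0.215. Except for *CALB2*, *SYCE3*, *MIR1299* and *PRAME*, the genes with an exon length were thus below the median of the tested genes.

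The 21 genes with more than 3 counts in a 0 h library had 0 to 3 counts per library in control iMacs. They had more than 3 in each library of CTCF-depleted cells. They summed to between 20 and 43 counts in depleted libraries with a median of 26. Both sides of the comparison with 0 h were restricted by selection. The rule set a minimum of depleted counts, and the class required more than 3 counts in a 0 h library. In 14 of the 21, both depleted libraries were above both 0 h libraries in CPM, in 3 they were below, and in 4 the libraries overlapped. Among all tested genes, 44.6% lay above and 43.1% below by the same criterion. Ratios of depleted to 0 h CPM lay between 0.107 and 7.62 (median 2.22). As minimum counts were required on both sides, nothing is read from the 14 of 21 or from this median.

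Genes below their level at 0 h were *MFAP3L*, *SLC26A9* and *VPS37D*. *MFAP3L*, a membrane protein, had 101 and 137 counts at 0 h, 2 and 2 in the control and 14 and 10 in depleted libraries, which is 0.107 of the 0 h level (95% counting interval 0.0674 to 0.163). *SLC26A9*, an anion transporter of epithelia, had 37 and 60 counts at 0 h, 1 and 2 in the control and 12 and 9 in depleted libraries (0.230 of the 0 h level, 0.136 to 0.372). In both genes the depleted libraries were at a small part of the level of undifferentiated cells, and below both 0 h libraries. *VPS37D*, a subunit of the ESCRT-I sorting complex, had 24 and 28 counts at 0 h, 0 and 0 in the control and 22 and 19 in depleted libraries. Its depleted level was at least 6.98-fold higher than the control floor, and the ratio to 0 h of 0.838 has an interval that includes 1 (0.543 to 1.29). *KIAA0895* (now *MATCAP2*) had 22 and 23 counts at 0 h, 1 and 1 in the control and 11 and 20 in depleted libraries, which overlapped with 0 h in CPM.

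The gene highest above its level at 0 h was *ENPP3*, an ectonucleotidase of basophils and mast cells. It had 2 and 4 counts at 0 h, 0 and 1 in the control and 19 and 24 in depleted libraries, 7.62 times the 0 h level (3.23 to 21.9). *CACNA2D1*, an auxiliary subunit of voltage-gated calcium channels, had 7 and 9 counts at 0 h, 2 and 2 in the control and 21 and 16 in depleted libraries. *MAPT*, which encodes the microtubule protein tau, had 5 and 9, then 1 and 0, then 25 and 9 counts, so that 1 depleted library had the same raw count as 1 of the 0 h libraries. *SNAP91*, a clathrin assembly protein of the synapse, had 1 and 6, then 3 and 3, then 12 and 19 counts. *NTN1*, the axon guidance ligand netrin-1, had 8 and 3, then 1 and 2, then 12 and 11 counts. All 4 of these genes were above 0 h in CPM in both depleted libraries.

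*PKHD1*, the fibrocystin of renal cilia, had 4 and 7 counts at 0 h, 1 and 0 in the control and 18 and 17 in depleted libraries. *DGAT2L6*, a member of the diacylglycerol acyltransferase family, had 4 and 5, then 0 and 2, then 18 and 13 counts. *OIT3*, a secreted protein of the liver, had 2 and 4, then 1 and 1, then 11 and 15 counts. In all 3 the depleted libraries were the highest of the 6. *IGSF10*, an immunoglobulin superfamily member, had 4 and 9, 3 and 3, and 13 and 14 counts, and the noncoding *LOC101928764* had 4 and 3, 0 and 0, and 14 and 13 counts, at least 4.60-fold above the control floor. The last 7 genes of this class had 20 to 25 summed depleted counts. One is *HHIP*, an antagonist of hedgehog ligands, with 5 and 7 counts at 0 h, 0 and 2 in the control and 5 and 15 in depleted libraries, which overlapped with 0 h. The others are *C20orf203*, *BCRP3*, *PDCL3P4*, *LOC100128494*, *LOC100129316* and *LOC101927400*, with 3 to 19 counts per library at 0 h and 8 to 13 in depleted libraries. Of these, *PDCL3P4* and *LOC100128494* overlapped with 0 h.

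**Figure D3:**
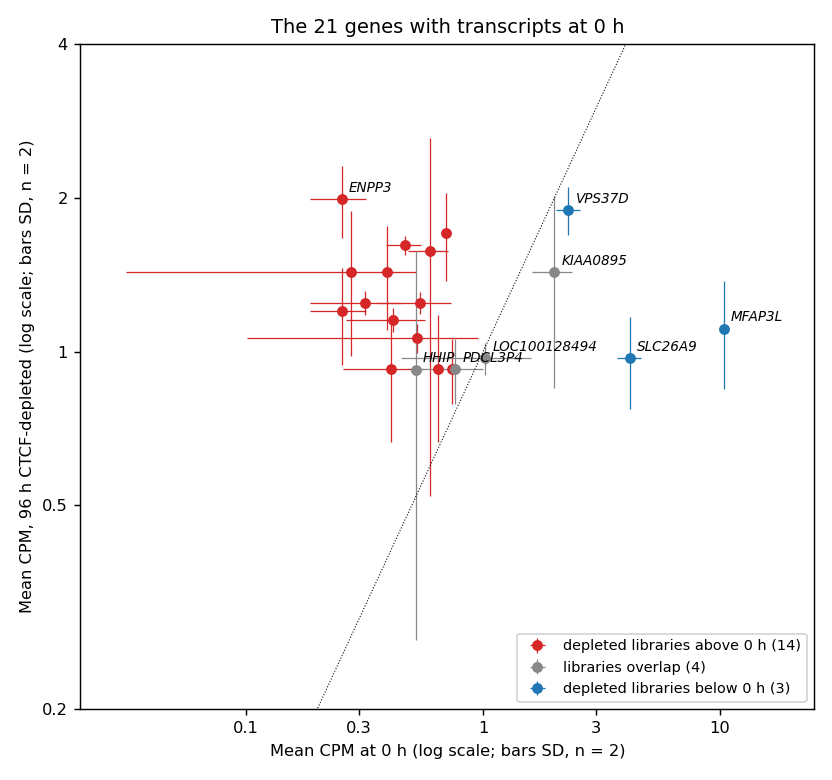
Mean CPM in CTCF-depleted libraries against mean CPM at 0 h (both log scale, bars SD, n = 2), with equal levels on the dotted line. Shown are the 21 genes that were not silent at 0 h. *MFAP3L*, *SLC26A9* and *VPS37D* (blue) were below 0 h in both libraries, 14 genes (red) were above, and 4 (grey) overlapped.

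Some values depend on how reads were assigned. *BCRP3* resembles *BCR* and *PDCL3P4* resembles *PDCL3*, so that reads could be shared with these copies. *TAC4*, *HHIP*, *IGSF10*, *KIAA0895*, *LOC100507513* and *PRSS30P* overlap other genes. As the strand setting of the counting is not given in the sources used here, reads within the overlap cannot be told apart. With their tested neighbors *ZG16B* and *ANLN*, *PRSS30P* and *KIAA0895* share only an edge (chr16:2839573-2839585 and chr7:36389821-36390125). 24 of the 33 genes are protein coding, 7 are pseudogenes or noncoding RNAs, 2 could not be placed on the genome, and the 31 placed genes lie on 17 chromosomes.

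Few of the genes belonged to the gene lists that were counted. 24 lists of families, pathways and cell type markers were used, 6 of them held a gene of the group, and 22 of the 33 genes were in none. The list of germline and meiosis genes held 2, *PRAME* and *SYCE3*, out of 119 silent genes among its 168. Of the 48 germline genes that could be tested, 2 others were higher in depleted libraries and 5 were lower (adjusted p below 0.01 and a log2 fold change beyond 0.6 in edgeR's quasi-likelihood test), where 5.41% and 7.03% of all tested genes were, and the median log2 fold change was -0.09 compared with -0.03 over all tested genes. One of those higher was *SYCP2*, of the lateral element of the synaptonemal complex, with 29 and 22 counts in the control and 55 and 64 in depleted libraries (log2 fold change 1.25, SE 0.28, edgeR adjusted p = 2.28e-04), although it did not pass without control replicate 2 or in DESeq2. *SYCE1* and *SYCP1* had 0 counts in every library, and *SYCE2* had 19 and 17 compared with 12 and 9 counts (log2 fold change -0.74, SE 0.45, edgeR adjusted p = 0.196).

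Long noncoding and antisense RNAs held 5 genes of the group among 4052 silent ones. Ion channels (*CACNA2D1*, 155 silent genes), axon guidance factors and Wnt or Notch ligands (*NTN1*, 68), solute carriers (*SLC26A9*, 146) and small nucleolar and micro RNAs (*MIR1299*, 1687) held 1 each. By the share of 0.238% over all silent genes, most lists are too small to hold a gene of the group, and their counts are given as a description only. None was found among the homeobox and paired box factors (124 silent genes), the olfactory receptors (381) or the clustered protocadherins (33). Of the targets of the aryl hydrocarbon receptor, a receptor for aromatic and indole compounds, 9 were silent and 5 could be tested, with a median log2 fold change of 0.29 compared with -0.03 over all tested genes. *CYP1A1*, the classical target of this receptor, had 0 and 3 counts in the control and 1 and 0 in depleted libraries. *TIPARP*, another target, had a log2 fold change of 0.55 (SE 0.08, edgeR adjusted p = 7.23e-08), below the limit of 0.6 that was required in addition.

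Partners of the encoded proteins were examined after the group was known. Of the tachykinin receptors, *TACR1* and *TACR3* had 0 counts in all libraries, and *TACR2* had 3 and 3 counts in depleted libraries and none elsewhere. The ALKAL2 receptor gene *ALK* had 13 and 19 counts in the control and 7 and 5 in depleted libraries (log2 fold change -1.37, SE 0.54, edgeR adjusted p = 0.0375), and *LTK* had 230 and 249 compared with 180 and 219 (log2 fold change -0.23, SE 0.13, edgeR adjusted p = 0.156). Neither passed the threshold of 0.01. The gasdermin *GSDMB* was higher, with 60 and 60 counts in the control and 100 and 125 in depleted libraries (log2 fold change 0.94, SE 0.19, edgeR adjusted p = 4.84e-05). Of its relatives, *GSDMD* had a log2 fold change of 0.09 (SE 0.08, edgeR adjusted p = 0.402) and *DFNA5* one of -0.03 (SE 0.22, edgeR adjusted p = 0.926). *RARA*, the retinoic acid receptor gene whose signaling PRAME can repress, had a log2 fold change of -0.20 (SE 0.07, edgeR adjusted p = 0.0168).

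Neighboring genes were not used to choose the group and could be tested, except that reads may be shared where genes overlap. For each placed gene, the nearest tested gene on either side within 100 kb was taken, which gave 43 neighbors of 26 genes. 5 neighbors were higher in depleted libraries (11.6%), compared with 5.41% of all 14758 tested genes, and 5 were lower (11.6%), compared with 7.03%. 33 neighbors passed neither. The median log2 fold change of all 43 was -0.05, with 19 above and 24 below 0, and 7 of them overlap the gene of the group. Of these 7, 2 were higher, and *RNASE3*, *MED12L* and *ANLN* were lower. The overlapping neighbors are not independent of the group, and both shares include them.

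Among the higher neighbors, *CMTR2*, an RNA cap methyltransferase gene 68998 bases from *CALB2*, had 349 and 317 counts in the control and 527 and 578 in depleted libraries (log2 fold change 0.76, SE 0.08, edgeR adjusted p = 3.49e-11). *MCU*, the pore of the mitochondrial calcium uniporter, ends 5890 bases before *OIT3* on the same strand. It had 414 and 436 compared with 717 and 652 counts (log2 fold change 0.72, SE 0.08, edgeR adjusted p = 7.70e-11). *KLHDC7B* ends 89 bases from the end of *SYCE3*, on the opposite strand, and had 37 and 42 compared with 100 and 89 counts (log2 fold change 1.29, SE 0.23, edgeR adjusted p = 5.36e-06). *FLJ45513* lies on the opposite strand within *TAC4* and had 37 and 42 compared with 78 and 91 counts (log2 fold change 1.13, SE 0.23, edgeR adjusted p = 4.47e-05). As the strand setting is not given, its reads may include reads of *TAC4*, and it is not taken as independent of *TAC4*. Control and depleted libraries did not overlap for any of these 4 neighbors. As the thresholds on the same libraries picked them, nothing is read from this. *HHIP-AS1* had 2 and 1 compared with 5 and 14 counts (edgeR adjusted p = 0.00898), and as it missed the rule of the group by 1 count and overlaps *HHIP*, it is not independent of it. *HHIP-AS1* passed in 2 of 9 alternative fits.

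The 5 lower neighbors were *AADAT* beside *MFAP3L*, *MED12L* partly over *IGSF10*, *ANLN* at the edge of *KIAA0895*, *CACNB1* beside *PLXDC1* and *RNASE3* within *LOC100507513*. *AADAT*, an aminotransferase of the kynurenine pathway, lies 27191 bases from *MFAP3L*. It had 411 and 606 counts at 0 h, 52 and 48 in the control and 9 and 7 in depleted libraries (log2 fold change -2.59, SE 0.32, edgeR adjusted p = 8.08e-10). *MFAP3L* and *AADAT* were therefore both highest at 0 h, but in depleted libraries *AADAT* was below the control and *MFAP3L* above it. The rule put *MFAP3L* above the control, and the thresholds picked *AADAT*, so nothing is read from their opposite directions. *MED12L*, a Mediator subunit, had 144 and 162 compared with 67 and 53 counts (log2 fold change -1.32, SE 0.17, edgeR adjusted p = 5.70e-09). *ANLN*, the cytokinesis protein anillin, had a log2 fold change of -0.81 (SE 0.06, edgeR adjusted p = 2.37e-16). For *CACNB1* it was -0.76 (SE 0.13, edgeR adjusted p = 5.08e-06) and for *RNASE3* -1.49 (SE 0.44, edgeR adjusted p = 0.00487), which passed in 6 of 11 alternative fits.

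A wider window of 500 kb was examined around the 4 genes with more than 100 counts. It held 56 tested genes, of which 7 were higher (12.5%, compared with 5.41% of all tested genes) and 3 lower, where 7.03% of all tested genes were lower. Of the 7, *CMTR2*, *KLHDC7B* and *FLJ45513* were already counted among the higher neighbors, and *FLJ45513* is not independent of *TAC4*. By locus, the share of higher genes was 21.4% around *TAC4*, 20% around *CALB2*, 7.14% around *SYCE3* and 0% around *PRAME*, and it was not tested. Around *TAC4*, 3 of 14 were higher. These were *FLJ45513*, the homeobox gene *DLX3* with 136 and 165 counts in the control and 529 and 577 in depleted libraries (log2 fold change 1.91, SE 0.11, edgeR adjusted p = 4.92e-21), and *NGFR*, a neurotrophin receptor, with 6 and 5 compared with 20 and 21 counts (log2 fold change 1.91, SE 0.52, edgeR adjusted p = 0.00241). *NGFR* did not pass when any library at 96 h was left out. *DLX3*, which had 0 counts at 0 h, starts 147 kb from the start of *TAC4*.

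Around *CALB2*, 2 of 10 genes were higher, both on the same side of it. These were *CMTR2* and the ciliary gene *HYDIN*, which had 32 and 16 compared with 109 and 136 counts (log2 fold change 2.38, SE 0.25, edgeR adjusted p = 9.31e-12). *HYDIN* has a near-identical copy elsewhere in the genome, and its count is uncertain for that reason. Around *SYCE3*, 2 of 28 genes were higher and 1 was lower. *ADM2*, which encodes the peptide adrenomedullin 2, had 20 and 19 compared with 113 and 103 counts (log2 fold change 2.49, SE 0.24, edgeR adjusted p = 9.34e-13), and *KLHDC7B* is given above.

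*PRAME* lies in the immunoglobulin lambda region, and 4 genes around it could be tested. The nearest, *ZNF280B*, had 12 and 9 compared with 15 and 15 counts (log2 fold change 0.54, SE 0.44, edgeR adjusted p = 0.359), and the pseudogene *BMS1P20* stayed below the fold limit (log2 fold change 0.31, SE 0.08, edgeR adjusted p = 0.00226). Genes of the B cell receptor on either side were lower: *VPREB1* of the surrogate light chain had 147 and 121 compared with 73 and 68 counts (log2 fold change -0.89, SE 0.15, edgeR adjusted p = 1.30e-06), and *IGLL5* had 33 and 32 compared with 4 and 8 (log2 fold change -2.38, SE 0.36, edgeR adjusted p = 2.42e-07). At 0 h they had 1467 and 1800 counts and 1153 and 1396 counts, respectively. Of the genes named for these windows, those more than 100 kb away and *ADM2* were picked after their values were seen.

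**Figure D4:**
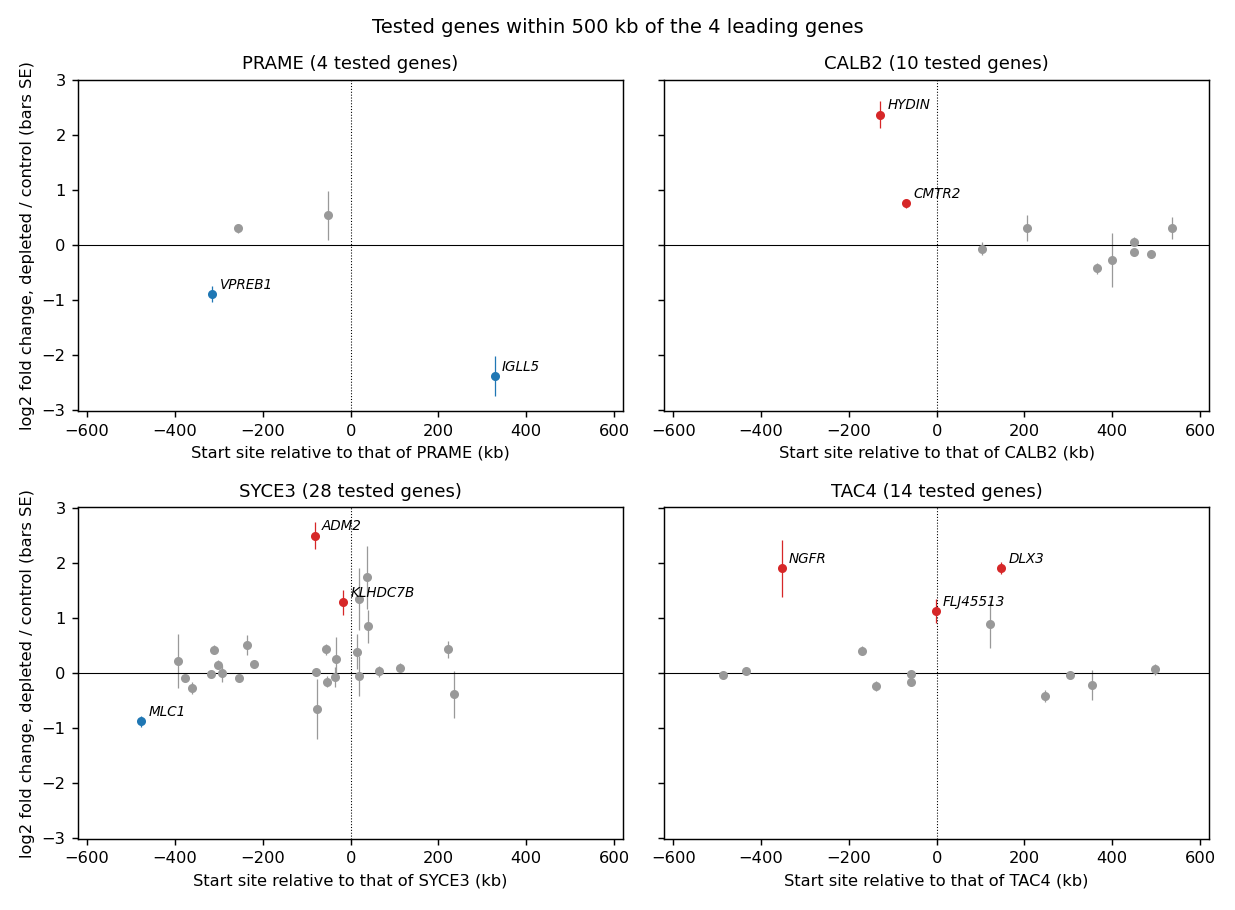
Log2 fold change of CTCF-depleted against control libraries at 96 h (bars SE) for tested genes within 500 kb of *PRAME*, *CALB2*, *SYCE3* and *TAC4*, by the distance of their start from that of the leading gene, which is at 0 and is not plotted. Red genes were higher and blue genes lower by both thresholds; 7 of 56 were higher, all in the loci other than that of *PRAME*.

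Cell identity was checked with marker genes. Summed over 14 B cell markers, the level was 4226 to 4234 CPM at 0 h, 765 to 771 in the control and 762 to 775 in depleted libraries. The sum hides changes of single genes, as 3 of the 14 were lower and 2 higher by both thresholds (median log2 fold change -0.17). 14 macrophage markers had 44.8 to 48.5 CPM at 0 h, 6529 to 6757 in the control and 5798 to 5883 in depleted libraries. Of these 14 genes, 5 were lower and 2 higher in depleted than in control libraries by both thresholds (median log2 fold change -0.21). Among all tested genes, 7.03% were lower and 5.41% higher. Markers of T and NK cells (11 genes, 6 of them silent in the control) had 42.1 to 42.2 CPM in the control and 34.4 to 36.6 in depleted libraries. Those of erythroid cells and megakaryocytes (11 genes, 6 at 0 in every 96 h library) had 25.8 to 27.2 and 28.0 to 29.9, and those of stromal, epithelial and neural cells (14 genes, 4 at 0 in every 96 h library) had 160.6 to 160.8 and 144 to 146. None of the 33 genes is in these lists, and the part of the marker differences in the results was not tested. *CTCF* itself had 2048 and 1875 counts in the control and 2062 and 2051 in depleted libraries (log2 fold change 0.10, SE 0.05, edgeR adjusted p = 0.119). As the degron acts on the protein, the transcript does not check the depletion, and its relative *CTCFL* had 0 counts throughout.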

How the data were processed

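RNA-seq libraries were made by the authors from total RNA with removal of ribosomal RNA. As deposited, the values are raw counts per gene symbol, which the authors obtained with the nf-core/rnaseq pipeline (STAR 2.6.1d, featureCounts 2.0.6, hg38). The methods describe counting over protein-coding exons, whereas the table also lists other genes. The strand setting and annotation release are not given in the sources used here. Total counts were 9273470 to 12718780 per library.

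Genes were tested in R 4.3.3 with edgeR 4.0.16 (filterByExpr, TMM, quasi-likelihood test, condition as the only term, all 6 libraries), which kept 14758 genes and 26 of the 33. Adjusted p-values follow Benjamini and Hochberg, with thresholds of 0.01 and a log2 fold change of 0.6. The p-values rest on the spread between the 2 libraries of each condition, 0 h included, with information shared between genes by the fit. SE is the absolute log2 fold change divided by the square root of the F statistic of the test. Simulated counts with known fold changes were also fitted, but without the filter and with the same spread for all genes. They therefore do not check the calls at low counts. CPM used TMM-scaled totals, and counting intervals of ratios were exact binomial ones at 95% on counts summed over the 2 libraries. Positions were taken from GENCODE 44 or RefSeq by symbol or earlier symbol, for 25085 of 30017 genes (83.6%). Plots were drawn with matplotlib 3.10.9.

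The members and lists were chosen with earlier results of these data known. Genes named are the 10 in each class with the most depleted counts, those at the limits, those in lists with 2 or more, and neighbors past the thresholds. Any other gene was named after its values were seen. Alternatives were DESeq2 1.42.0, other limits, filters, scaling and windows, the replicate number as a block, and leaving out each library.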

Additional observations from a re-analysis of the deposited data

How the results depend on the processing

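The number of genes in the group, 33, depended on the limits. It was 16 with at most 1 count per control library and 86 with at most 5, and it was 159 with a minimum of 10 summed depleted counts and 8 with a minimum of 40. With limits on scaled counts it was 31, all among the 33. Leaving out 1 library at 96 h gave 46 to 93 genes, the highest values without control replicate 1 (93) and control replicate 2 (71). The number silent at 0 h, 12, was 11 to 17 in all alternatives (14 to 16 with 1 of the 0 h libraries left out).

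Of the 33 genes, 25 passed the thresholds in edgeR and 10 in DESeq2, which is no test because the rule used these counts. The higher neighbors, 5, were 3 with at least 10 counts in every library and 9 with an adjusted p below 0.05 and no fold limit, and the lower neighbors, 5, were 3 and 14. Leaving out 1 library gave 4 to 5 higher and 4 to 6 lower neighbors. With a replicate block there were 4 higher and 5 lower. The replicate numbers do not pair the libraries (correlations -0.0194, 0.0109 and -0.0294 between conditions), and the block changed the call of no neighbor other than *HHIP-AS1*. The adjusted p over all alternative fits was 0.00424 to 0.309 for *HHIP-AS1*, 0.00283 to 0.158 for *RNASE3*, 6.73e-04 to 0.0704 for *NGFR* and 1.25e-05 to 0.0243 for *SYCP2* (edgeR or DESeq2). *RNASE3* and *NGFR* did not pass in DESeq2 or when any 1 library at 96 h was left out, and *SYCP2* did not pass in DESeq2 (0.0243) or without control replicate 2 (0.0148). The cause of these differences was not tested. Counts of 20 to 30 in 2 libraries are too few to rank most of these genes.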

Other observations

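Genes with 4 to 10 counts in the higher control library missed the limit of silence, but some showed a similar pattern. Of 2053 such genes, 51 had 20 or more summed counts in CTCF-depleted libraries and at least 4 times the control level, values that chose them and that are not tested. The largest ratio was that of the antisense RNA *WEE2-AS1*, with 19 and 18 counts at 0 h, 5 and 1 in the control and 115 and 114 in depleted libraries (ratio 39.0, 95% counting interval 17.6 to 107). *CYSLTR2*, a receptor for cysteinyl leukotrienes, had 1 and 3, then 3 and 5, then 43 and 46 counts (ratio 11.4, 5.53 to 27.1). Its depleted libraries were far above all others.

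Other genes of this kind were high before differentiation. *YAP1*, the transcriptional coactivator of the Hippo pathway, had 467 and 536 counts at 0 h, 5 and 5 in the control and 42 and 52 in depleted libraries (ratio 9.61, 5.00 to 20.7). *LAMP3*, a lysosomal membrane protein of mature dendritic cells, had 1015 and 1400, then 7 and 4, then 45 and 36 counts (ratio 7.52, 3.99 to 15.7). In both genes the depleted libraries lay between the control and the 0 h libraries, as for *MFAP3L* and *SLC26A9* among the silent genes.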
